A study of Drosophila melanogaster with 17 samples.

Results

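Chromatin digests that had been read both as a whole and after excision of the tetranucleosomal band were compared window by window in the 6 BG3-c2 titration libraries of a series of 17 Drosophila melanogaster libraries. Micrococcal nuclease (MNase) had been used at a low, a medium and a high amount, and each digest had 1 Illumina library, described in the series design as gel-purified tetranucleosomal DNA, and 1 nanopore library of total digested DNA. The 3 pairs were taken as the labels give them, and each value below sets the Illumina library over the nanopore library of the same digest. BG3-c2 is a cell line from the larval central nervous system, grown here without knockdown, and all 6 libraries share this untreated background.

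MNase cuts the linker DNA between nucleosomes and trims the ends that it opens. A limited digest therefore leaves a ladder of mono-, di-, tri- and tetranucleosomal fragments, and regions that are cut at different rates, or that hold differently spaced nucleosomes, can enter a single band of the ladder to different extents. In Drosophila, chromosome 4 and the centromere-proximal ends of the other arms are rich in heterochromatin, a compact form of chromatin, whereas most of 2L, 2R, 3L, 3R and X is euchromatin.

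The Illumina libraries of the low, medium and high digest held 129080516, 57786019 and 30387171 intervals, and the nanopore libraries held 355426, 437784 and 327053. The arms comprised 2L and 2R, 3L and 3R, the small chromosome 4, and X, and held 76.6% to 80.6% of Illumina and 81.4% to 82.2% of nanopore intervals. A 50 kb window held a median of 42630, 19193 and 9610 Illumina fragments but only 121, 149 and 112 nanopore reads, so the nanopore counts set the precision of every ratio. There is 1 library per platform and digest. The digests differ in the amount of MNase and were aliquots of nuclei per the labels' protocol, so p-values rest on spread between 3 digests, which may be technical. The limma p-values of single windows draw mostly on the spread of other windows of like CPM. These carry the weight of 16.8 degrees of freedom, beside 2 from the window itself.

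The fragment lengths were checked against the label first, because the sample labels call the Illumina libraries of the titration total digested chromatin too, and only the series design speaks of an excised band. Fragments of 600 to 800 bp made up 33.8%, 37.6% and 43.4% of Illumina fragments on the arms in the low, medium and high digest, against 15.8%, 15.3% and 11.3% of nanopore fragments. The share was thus 2.14, 2.46 and 3.83 times as large on Illumina. Within 500 to 1000 bp the most common length, after smoothing over 11 bp, was 694, 680 and 656 bp on Illumina and 590, 563 and 551 bp on nanopore. In each digest, then, tetranucleosome-sized DNA was enriched in the Illumina library.

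Short fragments were enriched on Illumina as well. Fragments of up to 250 bp, the size of a single nucleosome, made up 30.6%, 23.6% and 22.3% of Illumina fragments, against 4.25%, 7.39% and 11.4% of nanopore fragments. Their share was thus 7.19, 3.20 and 1.96 times as large on Illumina, in the low and the medium digest by more than that of fragments of 600 to 800 bp. Fragments over 1000 bp were 0.102%, 0.0950% and 0.0965% of Illumina fragments, against 24.7%, 10.2% and 3.83% of nanopore fragments. No interval in the Illumina tables was longer than 1500 bp. Platform, gel purification and the length limit of the Illumina tables differ together between the libraries of a pair and cannot be told apart, so the ratios below describe Illumina relative to nanopore libraries.

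**Figure D1:**
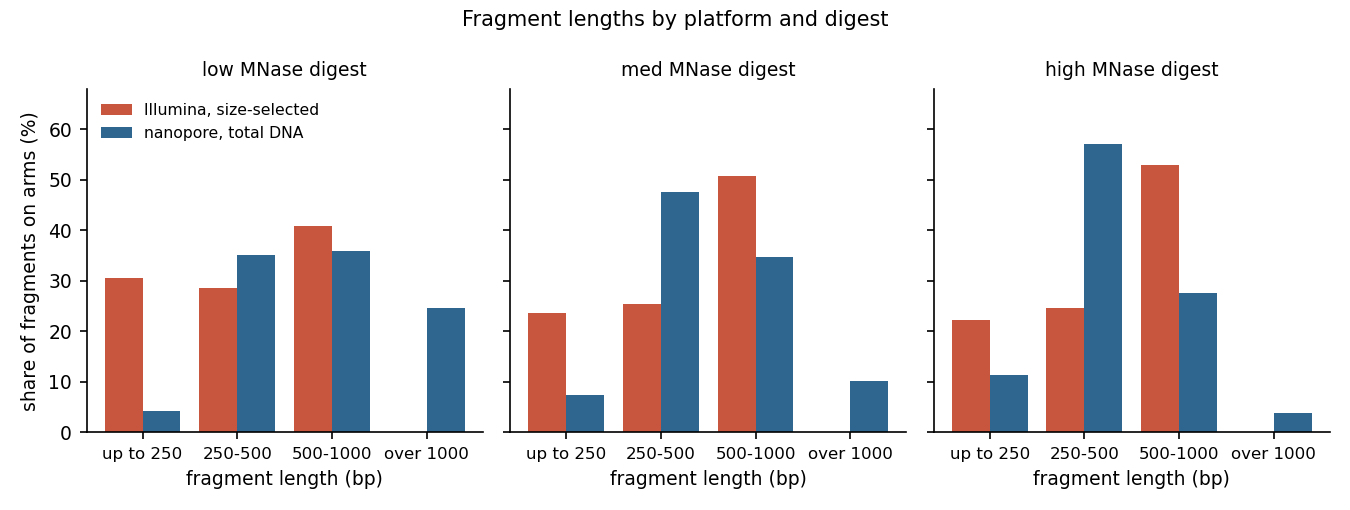
Bars give the percent of fragments on the 6 arms in 4 length classes (bp), with the Illumina library left of the nanopore library of the same digest, 1 library each and therefore no error bar. The Illumina libraries exceed the nanopore libraries at up to 250 bp and at 500 to 1000 bp in each digest, and hold about 0.1% over 1000 bp.

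Representation was measured as CPM, the count of a region scaled to a common total over the 6 arms, and the log2 ratio of Illumina to nanopore CPM was taken in each window with a pseudocount of 0.5. Of 2405 windows of 50 kb tested, 424 (17.6%) were higher and 512 (21.3%) were lower among Illumina fragments in limma's moderated test over the 3 digests, at a Benjamini-Hochberg adjusted p below 0.05. The median log2 ratio was 0.33 over the windows called higher and -0.32 over those called lower. Large departures were few, with 78 called windows above 0.5 and 11 above 1, against 46 below -0.5 and 1 below -1. With Illumina fragments limited to 500 to 1000 bp, 538 windows (22.4%) were higher and 663 (27.6%) lower, and these included 415 and 504 of the windows called with all lengths.

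The 3 digests gave much the same map. Across the windows, the log2 ratios correlated at r = 0.762 between the low and the medium digest, 0.759 between the medium and the high, and 0.702 between the low and the high, where the points share library depth and base composition. The ratio had one sign in all 3 digests in 1510 windows (62.8%), positive in 678 and negative in 832. The SD of the ratio across windows was 0.300, 0.300 and 0.296 in the low, medium and high digest, while counting error in a typical window accounts for an SD of 0.131, 0.119 and 0.137. The difference of the high from the low digest had an SD of 0.230 across windows against 0.190 from counting, so changes of the ratio with MNase amount were mostly within counting error at this depth.

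Separate libraries of the series gave a second view of the same regions. These were the tetranucleosomal Illumina libraries of BG3-c2 cells given control double-stranded RNA (dsRNA) against glutathione S-transferase, and nanopore libraries of untreated BG3-c2 cells, with 2 replicates of each. Only 46.6% and 17.04% of the intervals in the control dsRNA libraries lay on the arms. The ratio of replicate 1 correlated with the mean ratio of the titration at r = 0.644 over the windows, and that of replicate 2 at r = 0.544. Of the windows called higher, 361 (85.1%) and 343 (80.9%) were also above 0 in replicates 1 and 2, against 46.3% and 42.7% of all windows. Of those called lower, 473 (92.4%) and 452 (88.3%) were below 0, against 53.7% and 57.3% of all windows. The cells of these pairs were treated differently and the labels do not match their digests, so the numbers describe likeness of the maps only.

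**Figure D2:**
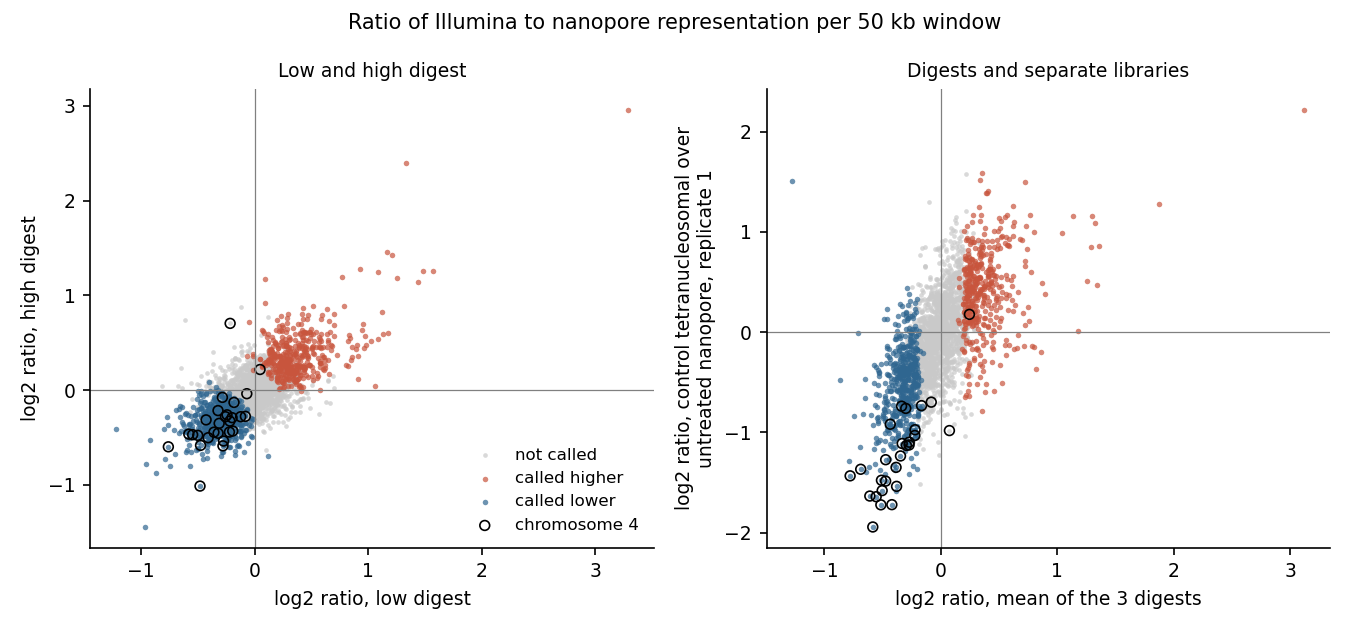
Each point is a 50 kb window, with the log2 ratio of the low digest against that of the high digest on the left, and the mean of the 3 digests against the ratio in replicate 1 of the separate libraries on the right. Points called higher and lower lie mostly in the upper right and lower left quadrants of both panels, and windows of chromosome 4 (circled) lie mostly at the lower left. The calls were made from the 3 digests, so only the vertical axis of the right panel is separate from them.

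Chromosome 4 had the largest share of called windows of the 6 arms, all on the lower side. Illumina CPM on chromosome 4 were 16139.8, 13603 and 14123 in the low, medium and high digest, and nanopore CPM were 19979.9, 18749 and 17959.5, so that all 3 Illumina values were below all 3 nanopore values. Relative to the other arms, the log2 ratio of chromosome 4 was -0.31, -0.47 and -0.35, with a mean of -0.38 ± 0.08 (SD, n = 3 digests). The exact two-sided sign-flip test gave p = 0.25, the smallest that 3 digests allow. The separate libraries gave -1.16 and -0.85 in replicates 1 and 2.

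The deficit ran along nearly the whole of chromosome 4. Of its 27 windows, 24 (88.9%) were called lower and none higher, beside 21.3% lower and 17.6% higher of all windows. In the low, medium and high digest 26, 26 and 25 had a negative ratio. The window medians were 603, 501 and 524 CPM on Illumina, against 769.9, 712 and 676 CPM on nanopore. The 3 windows that were not called lower were the first and the last of the chromosome and 4:750001-800000, with mean log2 ratios of 0.24, 0.07 and -0.08. The first and the last window also had the lowest shares of nanopore reads with a score of at least 20, 11.4% and 11.7%, where the score is the value from 0 to 40 deposited beside each nanopore read. Between the ends ran 14 consecutive called windows, 4:50001-750000, with a mean of -0.39, and 10 more, 4:800001-1300000, with a mean of -0.46. On chromosome 4, 91.1%, 90.2% and 89.5% of nanopore reads had a score of at least 20, against 97.3% on the other arms in each digest. With such reads alone the contrast with the other arms was -0.27. Of the 25 windows tested, 20 were lower and 1 higher, beside 24.0% lower and 18.0% higher of all windows. The ratio of 4:300001-350000, where 70.5% of nanopore reads had such a score, then went from -0.17 to 0.29 (limma, adjusted p = 0.00264). That of 4:1250001-1300000, with 69.2%, went from -0.50 to -0.01 (limma, adjusted p = 0.909). The Illumina intervals carry no score, so the limit removed nanopore reads only. A share below that of the arms raises the ratio by itself, so these tests cannot settle the ratio of either window.

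Limits on fragment length left chromosome 4 below the other arms. With both platforms limited to 500 to 1000 bp, the contrast was -0.44, -0.56 and -0.24 in the low, medium and high digest. Of the 27 windows, 20 were still lower and 1 higher, beside 14.5% lower and 10.9% higher of all windows. With both limited to up to 250 bp the contrast was -0.24, -0.49 and -0.59. Within the nanopore libraries, taking fragments of 500 to 1000 bp over all fragments gave 0.06, -0.05 and -0.15 for chromosome 4 relative to the other arms, a mean of -0.05 ± 0.10 (SD, n = 3; exact sign-flip p = 0.75). Within the Illumina libraries the same selection gave -0.07, -0.15 and -0.04. The nanopore library of MNase-digested naked genomic DNA had a mean fragment length of 459.8 bp in the median window of chromosome 4, against 518 bp over all windows. Base composition was not analysed here, and its part in the result was not tested.

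**Figure D3:**
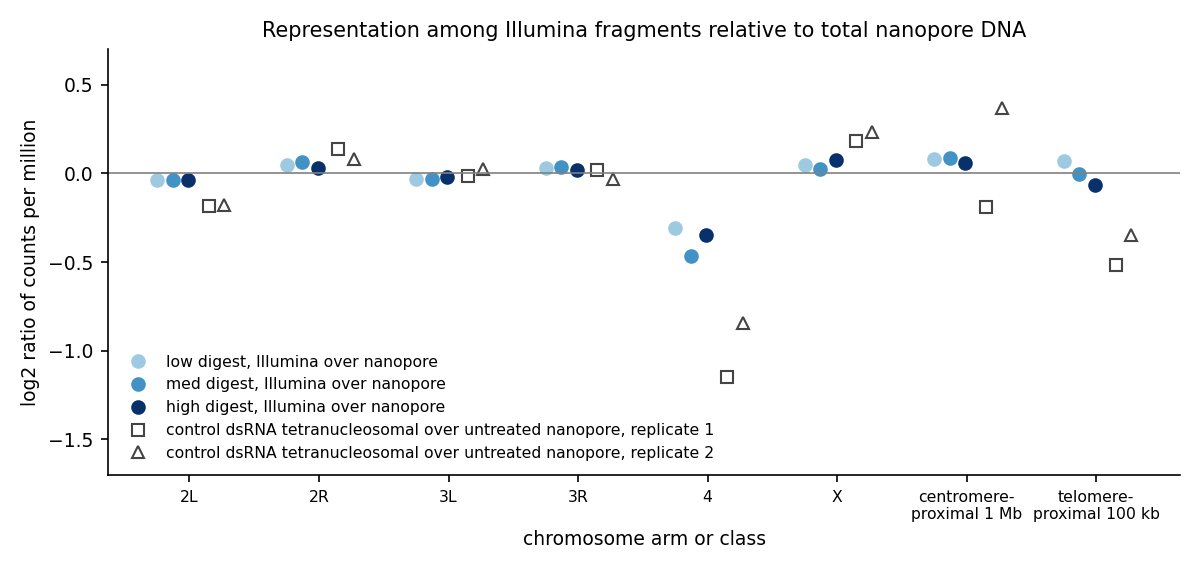
Points give the log2 ratio of CPM for 6 arms and for the centromere-proximal 1 Mb and telomere-proximal 100 kb of the long arms, with filled points for the 3 digests and open points for the 2 replicates of separate libraries. Chromosome 4 lies below 0 in all 5 comparisons, and the other arms lie within 0.08 of 0 in the 3 digests.

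The long arms differed little as wholes. Their mean log2 ratios over the 3 digests were -0.04 on 2L, 0.05 on 2R, -0.03 on 3L, 0.03 on 3R and 0.05 on X. X exceeded the autosomal arms by 0.05, 0.02 and 0.08 in the low, medium and high digest, a mean of 0.05 ± 0.03 (SD, n = 3; exact sign-flip p = 0.25). With both platforms limited to 500 to 1000 bp the mean was 0.02, with -0.01 in the medium digest, and the medians over windows differed by 0.005 (exact sign-flip p = 0.75). It was 0.03 from covered bases and 0.09 with nanopore scores of at least 20. The separate libraries gave 0.19 and 0.25 for X. Within the arms the spread was wider, as 5% of the windows of X lay below -0.45 and 5% above 0.56. The ratios of neighbouring windows correlated in part, at r = 0.49 on 2L, 0.34 on 3L, 0.30 on 2R and 0.25 on 3R and on X, and at 0.11 on chromosome 4. The value of 2L includes adjacent windows at 1.29, 3.12 and 1.87.

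The middle of 2L and of 3L was under-represented among Illumina fragments. From 5 to 15 Mb from the centromere-proximal end, 86 of 200 windows of 2L were lower and 8 higher, and 89 of 200 windows of 3L were lower and 12 higher. The median ratio of these stretches was -0.16, -0.17 and -0.13 on 2L in the low, medium and high digest, and -0.18, -0.18 and -0.17 on 3L. In the separate libraries the medians were -0.50 and -0.46 on 2L and -0.30 and -0.27 on 3L. The same stretch of 2R had 31 windows higher and 40 lower of 200, that of 3R 34 higher and 41 lower, and that of X 24 higher and 46 lower, with a median of -0.08 on X. The shares lower were 43.0% on 2L, 44.5% on 3L, 20.0% on 2R, 20.5% on 3R and 23.0% on X, beside 21.3% of all windows. The bounds of these stretches were chosen after the values had been seen, and no test was made between the arms.

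The longest run of consecutive called windows lay in the middle of 3L. All 18 windows of 3L:10100001-11000000 were lower, at -0.75 to -0.28, and their mean was -0.40, -0.48 and -0.44 in the low, medium and high digest. The separate libraries gave means of -0.62 and -0.66 there. In its window 3L:10700001-10750000 Illumina had 298, 266 and 289.9 CPM, against 513, 441 and 477 CPM on nanopore, and the ratio was -0.75 ± 0.08 (limma SE, n = 3; adjusted p = 9.61e-07). Each of its 5 stretches of 10 kb was below 0, at -1.27 to -0.49.

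The distal end of X stood on the other side. Of the 60 windows in its most distal 3 Mb, 38 (63.3%) were higher and 7 lower, whereas on the rest of X 54 of 387 (14.0%) were higher and 72 lower. The median ratio of the distal windows was 0.32, 0.24 and 0.32 in the low, medium and high digest, and -0.05, -0.07 and -0.01 on the rest of X. The separate libraries gave medians of 0.50 and 0.34 in the distal windows and 0.00 and 0.05 on the rest. This stretch, too, was chosen after its values had been seen. It holds X:1050001-1450000, the longest run of windows called higher, in which 8 windows averaged 0.39, 0.46 and 0.47 in the low, medium and high digest. The next longest were 7 windows of 2L:4200001-4550000, averaging 0.32, and 6 windows of 2R:20400001-20700000, averaging 0.39. In the separate libraries these 3 runs averaged 0.85, 0.62 and 0.61 in replicate 1 and 0.72, 0.54 and 0.39 in replicate 2.

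**Figure D4:**
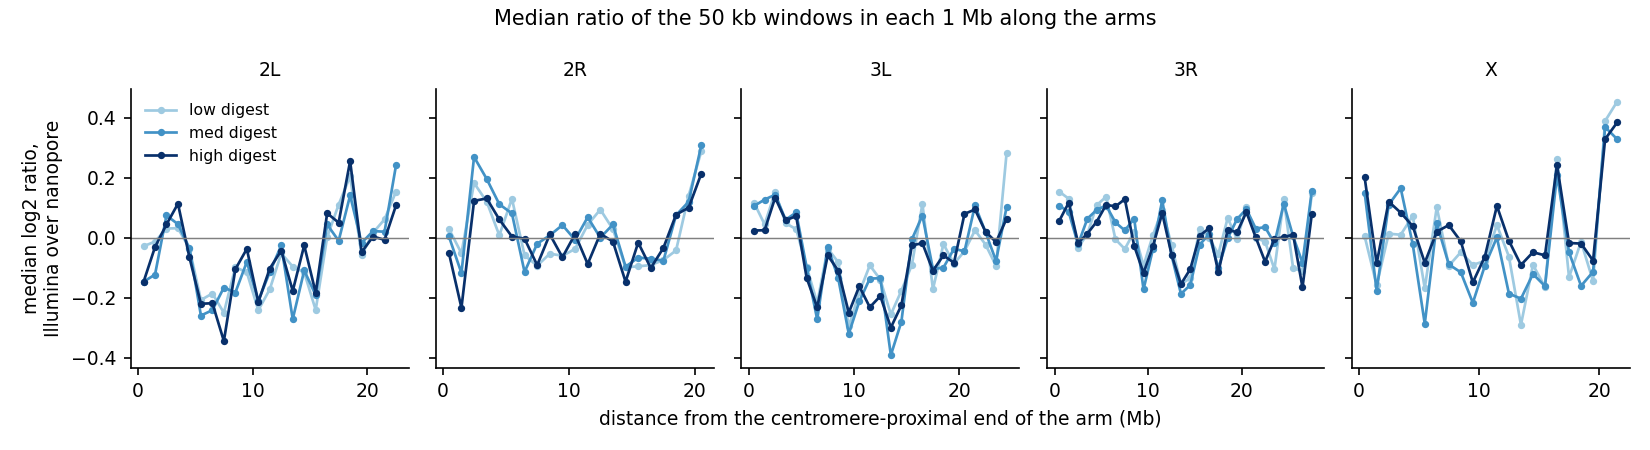
Lines give the median log2 ratio of Illumina to nanopore of the 50 kb windows in each 1 Mb, against distance from the centromere-proximal end (Mb), for 5 arms and the 3 digests. The lines of the 3 digests run together, below 0 in the middle of 2L and 3L and above 0.3 in the most distal full bins of X.

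The centromere-proximal 1 Mb of the 5 long arms was slightly over-represented when fragments of all lengths were counted. Illumina CPM were 43981, 43162 and 41097 in the low, medium and high digest, against 41527, 40690.3 and 39508 CPM on nanopore, and the difference from the rest of the arms was 0.08, 0.08 and 0.05, a mean of 0.07 ± 0.02 (SD, n = 3; exact sign-flip p = 0.25). By arm the mean ratios of these ends were -0.02 on 2L, 0.05 on 2R, 0.09 on 3L, 0.13 on 3R and 0.15 on X. Only 80.4%, 79.98% and 79.3% of nanopore reads there had a score of at least 20, against 98.0%, 98.1% and 98.0% on the rest of the arms. With such reads alone the contrast came to 0.37, where the limit touches the nanopore side only because the Illumina tables hold no score, and with both platforms limited to 500 to 1000 bp to 0.19. It was 0.12 with Illumina fragments of that length only and 0.11 from covered bases. With both platforms limited to up to 250 bp the contrast turned negative. It was then -0.003, -0.14 and -0.24 in the low, medium and high digest, a mean of -0.13. The separate libraries disagreed with each other, at -0.21 and 0.38.

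The telomere-proximal 100 kb showed no common direction over the 3 digests. The contrast with the rest of the arms was 0.07, -0.01 and -0.07 in the low, medium and high digest, a mean of -0.01 ± 0.07 (SD, n = 3; exact sign-flip p = 0.75), and its sign turned under 7 of 12 alternative settings. Single ends differed from each other. The end of 2L had ratios of 0.39, 0.43 and 0.09, that of 3L 0.19, -0.03 and 0.09, that of 3R -0.18, -0.27 and -0.29, that of X -0.32, -0.04 and -0.19, and that of 2R -0.02, -0.35 and -0.32. These ends held 104 to 503 nanopore reads per library. The separate libraries gave -0.53 and -0.36 for the contrast in replicates 1 and 2, both negative.

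Sequence outside the arms, which is mostly repeats and heterochromatin, was scaled to the same arm totals. The scaffolds 2LHet and 2RHet had ratios of 0.15, 0.14 and 0.22 and of 0.10, 0.19 and 0.18 in the low, medium and high digest, positive in each. For 3LHet the ratios were -0.02, 0.10 and 0.11, and for 3RHet 0.01, 0.13 and 0.11. The ratio of XHet was higher at each larger MNase amount, at -0.68, 0.03 and 0.57, and so were those of YHet, at -0.13, 0.01 and 0.27, and of the unplaced scaffold U, at -0.26, -0.05 and 0.22. XHet had 1424, 1464 and 1482 CPM on Illumina, against 2286, 1435 and 999 CPM on nanopore. YHet had 972, 1089 and 1243 CPM on Illumina, against 1061, 1083 and 1032 CPM on nanopore, and U had 53906, 59181 and 69261 CPM on Illumina, against 64501, 61059 and 59442 CPM on nanopore. The nanopore values differed more between digests for XHet, and the Illumina values for YHet and U. There is 1 library per digest, so the trend has no test. Uextra, a collection of unplaced and often redundant sequence, had 0.59, 0.41 and 0.68, with 37.0% to 42.6% of its nanopore reads at a score of at least 20. The separate libraries differed from these values and between replicates 1 and 2. They gave 0.95 and 3.21 for 2LHet, -0.17 and 0.16 for 2RHet, -0.17 and 0.35 for 3LHet, and 0.04 and 0.80 for 3RHet. For XHet they gave 0.14 and 0.33, for YHet 0.51 and 2.20, for U 1.24 and 2.90, and for Uextra 3.59 and 5.91.

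The mitochondrial genome, which carries no nucleosomes, was far scarcer in the Illumina libraries. It had 364, 36.1 and 21.1 CPM on Illumina in the low, medium and high digest, against 4565, 1865 and 875 CPM on nanopore. The log2 ratios were -3.65, -5.69 and -5.37, a mean of -4.90 ± 1.099 (SD, n = 3; exact sign-flip p = 0.25), the most negative of all sequences examined. Of the nanopore reads assigned to it, 11.1% to 13.9% had a score of at least 20. In the separate libraries the ratios were -6.05 and -8.07.

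The window with the highest ratio was 2L:21450001-21500000 (release 5 of the Drosophila genome, as are all coordinates here). Illumina had 1020.4, 952 and 831 CPM there in the low, medium and high digest, against 103, 109 and 105 CPM on nanopore, which is 30, 39 and 28 reads. The log2 ratio was 3.12 ± 0.09 (limma SE, n = 3; adjusted p = 1.87e-15), an 8.69-fold excess. This SE draws also on windows with more nanopore reads, so it understates the counting error of so few reads. Its neighbours 2L:21400001-21450000 and 2L:21500001-21550000 had 1.29 and 1.87, and the windows beyond them -0.25 and 0.04, so that the excess was bounded within 150 kb. This stretch is known to hold the tandem repeats of the 5 core and linker histone genes, although no annotation of release 5 was used here.

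Both platforms departed from their surroundings in that stretch. Illumina CPM in the highest window were above, and nanopore CPM below, the values of every window outside these 3 within 200 kb. The naked DNA library, also read on nanopore, had only 146 CPM in the highest window, against 424 CPM in 2L:21350001-21400000. Only 9.28% of the titration's nanopore reads in the highest window had a score of at least 20, so too few were left to test it with that limit. The separate libraries gave 2.22 and 2.53 there. The part of read assignment in these repeats was not tested.

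**Figure D5:**
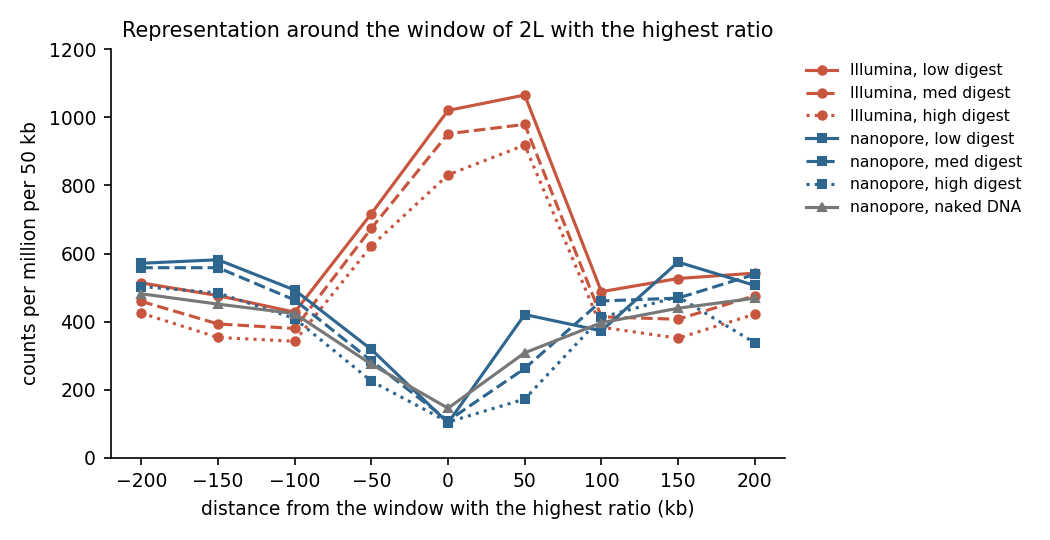
Lines give CPM per 50 kb window against distance from the window with the highest ratio (kb), for the Illumina and nanopore libraries of the 3 digests and for naked DNA on nanopore. Illumina reaches 831 to 1020.4 CPM at the centre, where nanopore libraries of chromatin hold 103 to 109 CPM and naked DNA 146 CPM.

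The other 5 windows with the highest ratios, each over 500 kb from the last, came from 4 arms. 3R:5650001-5700000 had 929.6, 901 and 821 CPM on Illumina in the low, medium and high digest, against 311, 377 and 342 CPM on nanopore, a log2 ratio of 1.36 ± 0.08 (limma SE, n = 3; adjusted p = 3.61e-10). X:21550001-21600000 had 976, 784 and 692 CPM on Illumina, against 359, 285 and 312 CPM on nanopore, and X:17050001-17100000 had 600.3, 599 and 564 CPM against 281, 221 and 237 CPM. 3L:23350001-23400000 and 2R:6500001-6550000 had log2 ratios of 1.32 and 1.297. In all 5 windows every Illumina value was above every nanopore value, and the separate libraries were on the same side, at 0.15 to 1.41.

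The width of the excess differed between these windows. In X:17050001-17100000, 1 of 5 stretches of 10 kb was above 1, X:17090001-17100000, which had 400.1 CPM on Illumina and 23.4 CPM on nanopore, as means of the 3 digests, and a log2 ratio of 4.10. The other stretches of that window were between -0.63 and 0.12. In 3R:5650001-5700000, 2 of 5 stretches were above 1, and X:21550001-21600000, 3L:23350001-23400000 and 2R:6500001-6550000 had 3 each. All 5 stretches were above 0 in X:21550001-21600000, at 0.47 to 2.64, and in 3L:23350001-23400000, at 0.38 to 2.25. Nanopore reads with a score of at least 20 made up 15.2% of the reads in X:21550001-21600000, against 71.5% to 96.9% in the other 4 windows.

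Among the 6 windows named for the lowest ratios, 3 were below 0 in each stretch of 10 kb. 3L:18350001-18400000 had 289.5, 278 and 269 CPM on Illumina in the low, medium and high digest, against 561, 433 and 458 CPM on nanopore, a log2 ratio of -0.79 ± 0.08 (limma SE, n = 3; adjusted p = 1.05e-06). Its 5 stretches of 10 kb lay between -0.91 and -0.61, 99.5% of its nanopore reads had a score of at least 20, and the separate libraries gave -1.29 and -1.24. 3L:10700001-10750000, described above, was alike, with -0.84 and -0.92 in the separate libraries. 4:1000001-1050000 had 604, 502 and 507 CPM on Illumina, against 842, 899 and 1021 CPM on nanopore, a log2 ratio of -0.78. It held a stretch of -1.73 with 300 nanopore reads, summed over the digests, in which naked DNA reached 1404 CPM. Its other stretches were between -0.73 and -0.31.

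The other 3 low windows each rested on 1 or 2 stretches of 10 kb with many nanopore reads. The stretches with the most were X:21830001-21840000, X:6920001-6930000 and 3L:23600001-23610000. The nanopore libraries had 580, 337 and 437 CPM there, as means of the 3 digests. Naked DNA, also read on nanopore, had 504, 308 and 445 CPM. X:21800001-21850000 had the lowest ratio of all, at -0.97, -1.42 and -1.44 in the low, medium and high digest and a mean of -1.28 ± 0.08 (limma SE, n = 3; adjusted p = 1.64e-09), but 531 of its nanopore reads, summed over the digests, lay in 1 stretch. Its ratio was -0.45 (limma, adjusted p = 0.00105) with nanopore reads of a score of at least 20 and -0.56 (limma, adjusted p = 0.00188) with both platforms limited to 500 to 1000 bp. The separate libraries went the other way there, at 1.51 and 3.89. X:6900001-6950000 had -0.86, and 34.7% of its nanopore reads had a score of at least 20. With those reads alone its ratio was 0.61 (limma, adjusted p = 0.00035). 3L:23600001-23650000 had -1.22, -0.50 and -0.41, and its mean of -0.71 became -0.01 (limma, adjusted p = 0.968) with reads of a score of at least 20 and 0.26 (limma, adjusted p = 0.143) with both platforms limited to 500 to 1000 bp. It was -0.45 without the low digest and -0.28 from covered bases (limma, adjusted p = 0.00293 and 0.0192). In X:21800001-21850000 and 3L:23600001-23650000, 54.2% and 58.6% of nanopore reads had a score of at least 20. The score limit removed nanopore reads only, so shares this low raise the ratio by themselves. Tests with that limit therefore cannot settle the ratios of these windows.

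The score of nanopore reads differed between the called sets at its low end. The median share of nanopore reads with a score of at least 20 was 98.8% over the 424 windows called higher, 99.5% over the 512 called lower and 99.5% over the 1469 others. The share was below 80% in 34 (8.02%) of the windows called higher, 15 (2.93%) of those called lower and 49 (3.34%) of the others. Its part in the calls was not tested beyond the limit to scores of at least 20, which acts on the nanopore side only.

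Windows over-represented among Illumina fragments held more tetranucleosome-sized Illumina DNA. The median share of Illumina fragments of 500 to 1000 bp was 43.0%, 53.3% and 54.5% in windows called higher in the low, medium and high digest, against 38.0%, 47.7% and 50.7% in windows called lower. Across all windows this share correlated with the mean log2 ratio at r = 0.64, 0.65 and 0.56, where both come from the same Illumina libraries. The nanopore share of the same lengths was 36.1%, 35.3% and 28.9% in windows called higher, against 36.3%, 34.1% and 26.5% in those called lower, with r = 0.01, 0.07 and 0.16. In each digest the nanopore medians of the called sets differed by less than the Illumina medians did.

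Libraries outside the titration differed between these windows in long fragments. In replicate 1 of untreated BG3-c2 nanopore DNA, fragments over 1000 bp made up a median of 19.5% in windows called higher, against 17.2% in windows called lower, and the mean length was 759 bp against 728 bp. In naked DNA the share over 1000 bp was 8.26% against 6.67%, and the mean length 529 bp against 508 bp. The correlation with the mean ratio was 0.22 in chromatin and 0.37 in naked DNA for the share over 1000 bp. Coverage of untreated chromatin over naked DNA, both on nanopore, was -0.01 on the log2 scale in windows called higher and 0.01 in those called lower, with r = 0.02. These readouts are descriptions across windows that share libraries and base composition, and no test was made on them.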

How the data were processed

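The authors deposited a genome interval for each fragment, given by its chromosome and its start and end position (in bp), and, in the nanopore tables of the titration and of naked DNA, a score from 0 to 40. The submitters' processing notes name Bowtie 1.1.1, bedtools and the build dm3 (release 5), without saying which step used them. Aligner settings, filters and the meaning of the score are not given in the sources used here. Intervals were counted by midpoint in windows of 50 kb with Python 3.11.15 and numpy 2.4.6. Windows of at least 25 kb with a mean of at least 20 intervals per library on each platform were kept, 2405 of 2411. The within-digest log2 ratios were tested against 0 with limma 3.58.1 in R 4.3.3 (intercept only, eBayes with a trend on mean log2 CPM). In simulated data it recovered 48% of log2 changes of 0.25 and 100% of 0.5, and called 0.590% of unchanged windows, so windows not called may still differ. Pairing by digest rests on the labels. Deviations from the platform mean correlated within the low, medium and high pair at r = 0.324, 0.089 and 0.245. Medium Illumina with high nanopore gave 0.148. Sums over classes were tested by exact sign-flip tests over the 3 digests. Named windows were up to 6 highest and 6 lowest among called windows with one sign in 3 digests, none within 500 kb of one already taken, and up to 3 longest runs per direction. Members, classes and lists were chosen with earlier results of these data known. Alternatives covered fragment length, repeated intervals, position, score, window size, scaling, pseudocount, filters, single digests and the pairing. Total counts per library are given in the report, and Illumina counts include repeated intervals. Distinct intervals were 77.5%, 88.7% and 93.1% of the Illumina intervals in the low, medium and high digest. Whether the repeats are copies made by PCR was not tested. Gene annotation and base composition of release 5 were not used here.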

Additional observations from a re-analysis of the deposited data

How the results depend on the processing

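The counts of windows higher and lower among Illumina fragments, 424 and 512, stayed within 1.5 times under most settings. They were 247 and 329 with fragments of 500 to 1000 bp on both platforms, 264 and 309 in 100 kb windows, and 98 and 75 against a log2 threshold of 0.2 (limma treat), and the lower count was 1030 in 10 kb windows. Windows of 10 kb and 100 kb change the number tested: 415 (4.45%) were higher and 1030 (11.04%) lower of 9333 at 10 kb, and 21.9% and 25.7% of 1203 at 100 kb. The other causes were not tested. Leaving out 1 digest gave 289 to 345 higher and 328 to 420 lower, with 328 lower without the medium digest. Without the replicate block, that is with the libraries of a digest unpaired, the counts were 350 and 413, all of them also called in the paired fit. A pseudocount of 5 moved the split to 327 higher and 734 lower. Limiting the nanopore reads alone to a score of at least 20 turned 8 calls round, and X:6900001-6950000 became 0.61. 3L:23600001-23650000 became 0.26 with 500 to 1000 bp on both platforms. Chromosome 4 and X kept their sign in every setting run, but X ranged down to 0.005. The centromere-proximal ends kept theirs except with both platforms limited to up to 250 bp, where the mean contrast was -0.13. The telomere-proximal contrast of -0.01 became 0.049 with Illumina fragments of 500 to 1000 bp, 0.11 with that length on both platforms, 0.0048 with each distinct interval once, 0.11 with covered bases, 0.069 with scores of at least 20 and 0.059 over 200 kb, and was -0.042 to 0.026 without 1 digest. With distinct intervals, YHet became -0.0016 and U 0.011. Within nanopore, X became -0.0073 at 600 to 800 bp. Limiting nanopore fragments to 1500 bp was added after the data were seen and gave 452 and 522. Counting error of nanopore reads limits every ratio.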
